A study of Mus musculus with 3 samples.

Results

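Hand1, Hand2, Id1, Id2, Id3 and Id4 are the HAND and ID genes of the mouse, and the peaks of the heart transcription factor NKX2-5 around them were examined. These 6 of the 22367 protein-coding genes of the GENCODE M1 annotation were taken by name, and a peak belonged to a gene when its midpoint lay in the gene body or within 100 kb of it. By this rule 15 of the 4418 peaks of 1 library, called S1, and 16 of the 5441 peaks of the other, called S4, belonged to the 6 genes, a mean of 15.5 ± 0.707 (SD, n = 2 libraries). Whole hearts of Parkes mouse embryos at E11.5, with no genetic change or treatment given in the labels, were used for chromatin immunoprecipitation and sequencing (ChIP-seq) with the N-19 antibody against NKX2-5. There were 2 ChIP libraries, S1 and S4, and 1 Input library, which was not analysed here. Nothing in the labels tells whether S1 and S4 came from separate pools of hearts, so the spread between them may be technical. Each library has its own list of peaks on the mm9 genome, with a score derived from the p-value of the peak caller (10 times its negative decimal logarithm).

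Basic helix-loop-helix (bHLH) factors bind DNA as dimers at a short sequence called the E-box, usually with an E protein as partner. HAND2 is needed for growth of the right ventricle, the outflow tract and the limb and branchial arches, and HAND1 is found in the left ventricle and in extraembryonic tissue. The ID proteins have the helix-loop-helix but no basic region, so they take up E proteins without binding DNA and hold back differentiation in many tissues.

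The stretches of DNA under the peaks that both libraries shared are shown first, because the overlap between S1 and S4 is the replicate check that the data allow. Each sequence is the plus strand of mm9, 201 bases centred on the midpoint of the stretch that both peaks cover. Capitals mark AAGTG, the core of the NKX2-5 site, and TGACA, the core of the site of MEIS homeodomain proteins, as they stand or as their reverse complements CACTT and TGTCA. The 4 from Hand2 are given in their order along the chromosome, at chr8:59799365-59799565, chr8:59805178-59805378, chr8:59807410-59807610 and chr8:59810601-59810801.
Hand2 promoter: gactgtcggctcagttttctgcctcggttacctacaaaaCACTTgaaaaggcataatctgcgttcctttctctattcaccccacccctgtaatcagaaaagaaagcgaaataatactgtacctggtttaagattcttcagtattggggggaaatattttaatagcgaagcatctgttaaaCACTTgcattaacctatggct
Hand2, 5.50 kb downstream of the start: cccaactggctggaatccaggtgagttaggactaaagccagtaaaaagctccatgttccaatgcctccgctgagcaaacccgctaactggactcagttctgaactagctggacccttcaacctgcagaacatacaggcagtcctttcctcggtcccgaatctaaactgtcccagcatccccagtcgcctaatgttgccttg
Hand2, 7.73 kb downstream of the start: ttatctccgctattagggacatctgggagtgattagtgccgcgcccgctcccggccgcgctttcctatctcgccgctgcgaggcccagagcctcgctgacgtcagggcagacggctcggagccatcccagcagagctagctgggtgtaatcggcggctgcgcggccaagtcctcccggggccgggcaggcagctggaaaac
Hand2, 10.9 kb downstream of the start: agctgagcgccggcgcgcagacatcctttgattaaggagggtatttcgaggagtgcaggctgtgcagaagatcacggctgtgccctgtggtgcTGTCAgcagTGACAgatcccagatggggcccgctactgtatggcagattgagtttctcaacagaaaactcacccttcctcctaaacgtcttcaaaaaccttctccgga
The promoter stretch has AAGTG at 374 and 233 bp upstream of the start of Hand2, the former inside the longer form TNAAGTG. The stretch at 7.73 kb, which has the highest score of the 4 in each library, has no capitals, and AAGTG and TGACA were also missing from the whole 779 bp that both peaks cover there. At 10.9 kb TGACA occurs 2 times on opposite strands, with the matches 5 bp and 4 bp from the midpoint.

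The corresponding sequences of Id3, Hand1 and Id2 follow, at chr4:135694821-135695021, chr11:57688521-57688721 and chr12:25777316-25777516. The 1 other shared stretch, over the start of Id3, lies in transcribed sequence and is not printed.
Id3, 4.49 kb upstream of the start: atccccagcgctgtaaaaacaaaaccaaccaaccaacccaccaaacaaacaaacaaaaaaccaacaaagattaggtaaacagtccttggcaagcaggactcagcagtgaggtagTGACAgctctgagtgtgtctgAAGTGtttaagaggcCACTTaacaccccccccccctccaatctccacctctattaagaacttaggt
Hand1, 42.3 kb upstream of the start: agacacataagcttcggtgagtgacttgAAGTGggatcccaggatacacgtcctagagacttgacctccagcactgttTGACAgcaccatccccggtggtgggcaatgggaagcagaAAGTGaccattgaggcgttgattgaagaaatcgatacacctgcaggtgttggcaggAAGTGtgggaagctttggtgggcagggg
Id2, 3.54 kb downstream of the start: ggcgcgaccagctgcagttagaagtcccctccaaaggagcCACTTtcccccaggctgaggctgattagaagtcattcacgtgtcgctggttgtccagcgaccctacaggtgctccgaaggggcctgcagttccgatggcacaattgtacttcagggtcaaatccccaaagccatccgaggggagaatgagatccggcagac
The Id3 sequence holds TGACA 16 bp from its midpoint and AAGTG 37 bp and 52 bp from it, on opposite strands and both inside TNAAGTG. In the Hand1 sequence AAGTG occurs 3 times and TGACA 1 time. The Id2 sequence has AAGTG 1 time, together with 4 matches to CANNTG, the E-box, of which 1 is CACGTG.

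All 6 genes had a peak in S1, where 38.4% of all protein-coding genes did, and 5 of the 6 had a peak in S4, where the share was 44.6%. The gene without an S4 peak was Id4. In 4 genes, Hand1, Hand2, Id2 and Id3, a peak of S1 overlapped a peak of S4 by at least 1 bp, against 24.3% of all protein-coding genes. Id1 had peaks in both libraries that did not overlap. Measured within 100 kb of the gene start rather than of the gene body, the same 4 genes had a shared peak and 21.0% of all genes did. A gene missing from a list had no peak at or above the lowest listed score, 140.01 in S1 and 140.02 in S4. Read numbers were not used here and the depth is unknown, so a missing peak does not show that NKX2-5 was absent.

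**Figure D1:**
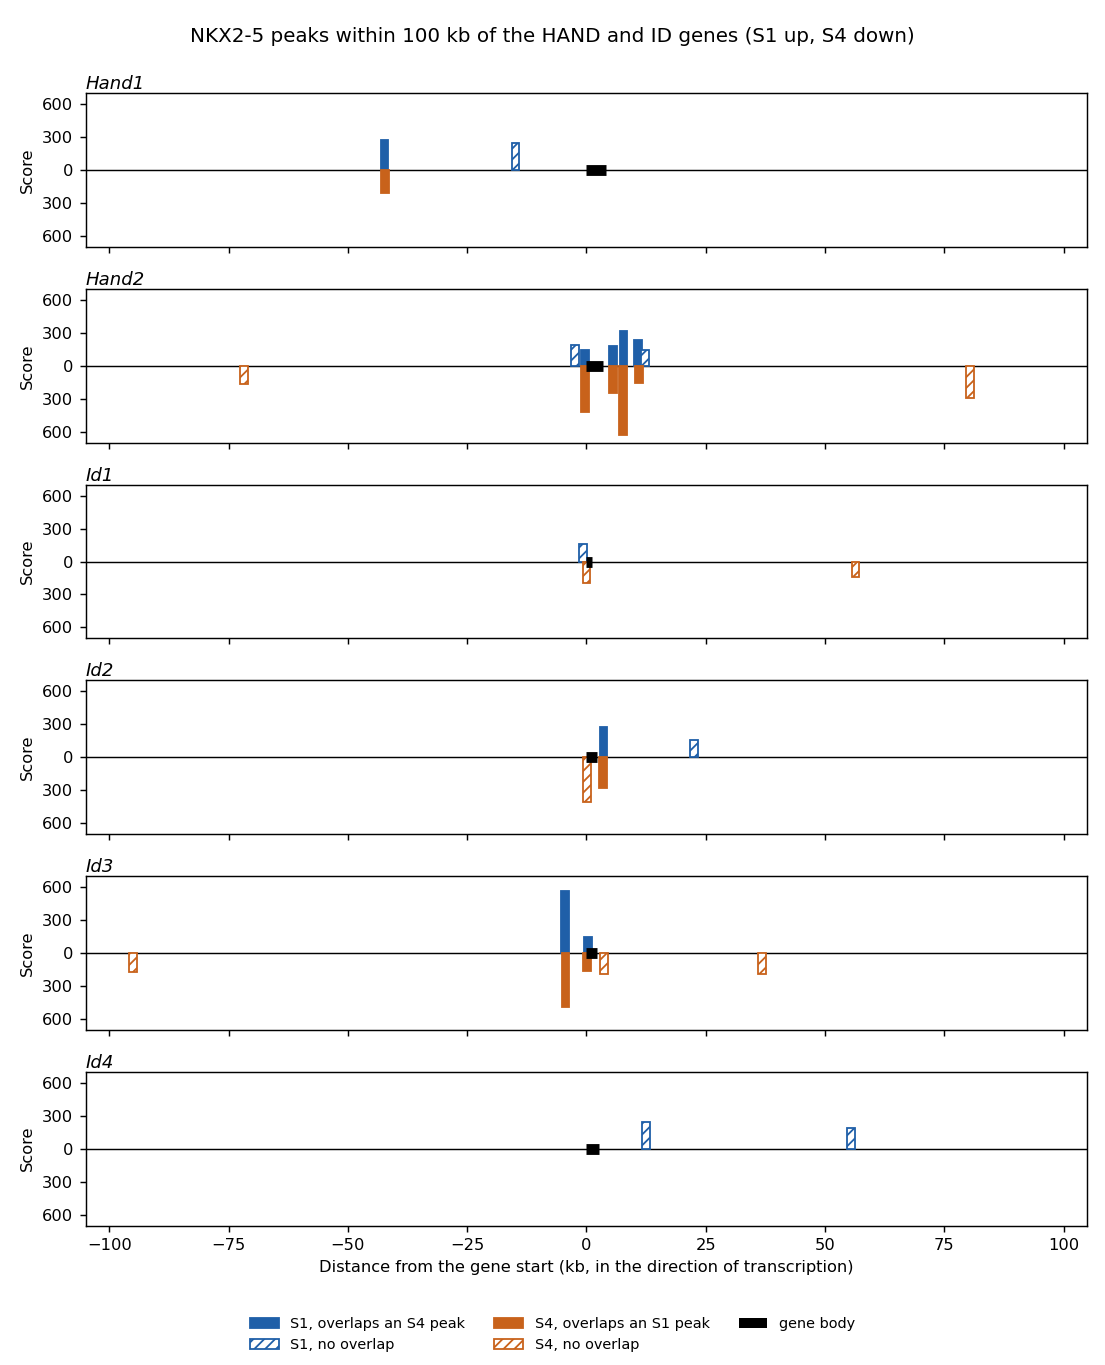
NKX2-5 peaks by their midpoint (x axis, kb from the gene start in the direction of transcription) and score (y axis, S1 upwards and S4 downwards) for each of the 6 genes. Filled bars are peaks that overlap a peak of the other library, hatched bars do not, all bars are drawn at the same width, and the black line is the gene body. Hand2 has 6 peaks in each library, and Id4 has 2 in S1 and none in S4.

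Hand2 (ENSMUSG00000038193.3, chr8:59799780-59803314, plus strand) had the most peaks of the 6 genes, 6 in S1 and 6 in S4, of which 4 in each were shared. Of all protein-coding genes, 0.505% had at least 6 S1 peaks and 1.01% had at least 6 S4 peaks within the same distance. The S1 peaks stood together, all 6 between 2.44 kb upstream and 12.2 kb downstream of the start. From the first to the last base this run spanned 15.3 kb, and peaks covered 27.1% of it. In the whole S1 list, 0.43% of the peaks stood in runs of at least 6 within such a span, these 6 included. The 4 shared S4 peaks spanned 12.5 kb and covered 46.5% of it. Runs of at least 4 within that span took in 1.23% of all S4 peaks. The run lengths and spans were taken from Hand2 itself, so these shares describe its runs and are no test of rarity.

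At the Hand2 promoter the S1 peak (chr8:59799169-59799761, 593 bp) had a score of 145, rank 4153 of 4418. The S4 peak (chr8:59798681-59800237, 1557 bp) had a score of 421, rank 980 of 5441. It took in the whole S1 peak and reached over the transcription start, which the S1 peak did not. The S4 score was 2.90 times the S1 score, the largest ratio among the 8 shared pairs of the 6 genes. Of all 2610 pairs, 4.25% had a log2 ratio of S4 to S1 as high or higher. Since this pair was picked as the largest of 8, that share does not measure how unusual it is. The midpoints of these peaks were 6 bp apart, the closest of the 8 pairs.

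Downstream of Hand2, 3 more pairs followed. The next pair had a score of 180.4 in S1 (chr8:59804952-59805605, 654 bp) and 248 in S4 (chr8:59804788-59805975, 1188 bp). In the pair after it, the S1 peak (chr8:59807121-59807899, 779 bp) scored 319, rank 1146, and the S4 peak (chr8:59806250-59808534, 2285 bp) scored 631, rank 492. These were the highest scores at Hand2 in both libraries, and the S4 peak was the widest of the 31 at the 6 genes, wider than or as wide as 99.2% of its list. The last pair went the other way, with 233 in S1 (chr8:59810214-59811025, 812 bp) and 155 in S4 (chr8:59810378-59811140, 763 bp). It lay over the start of 5033428I22Rik, a long intergenic noncoding RNA gene on the same strand (chr8:59810915-59819479). The log2 ratios of S4 to S1 along the gene were thus 1.53, 0.46, 0.98 and -0.58, with a median of 0.72.

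The 4 other peaks at Hand2 lacked a partner. In S1 they were a peak of score 192 upstream (chr8:59796979-59797701, 723 bp), 979 bp from the nearest S4 peak, and a peak of score 147 (chr8:59811730-59812320, 591 bp) in an exon of 5033428I22Rik, 589 bp from the nearest S4 peak. Both lay next to a shared region. In S4 they were a peak of score 163 (chr8:59727625-59728251, 627 bp) at 71.8 kb upstream and a peak of score 289 (chr8:59879783-59880655, 873 bp) at 80.4 kb downstream. The latter is closer to the start of Scrg1, at 54.5 kb, than to that of Hand2. Summed over all its peaks, Hand2 had 4152 bp under peaks in S1 and 7293 bp in S4.

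**Figure D2:**
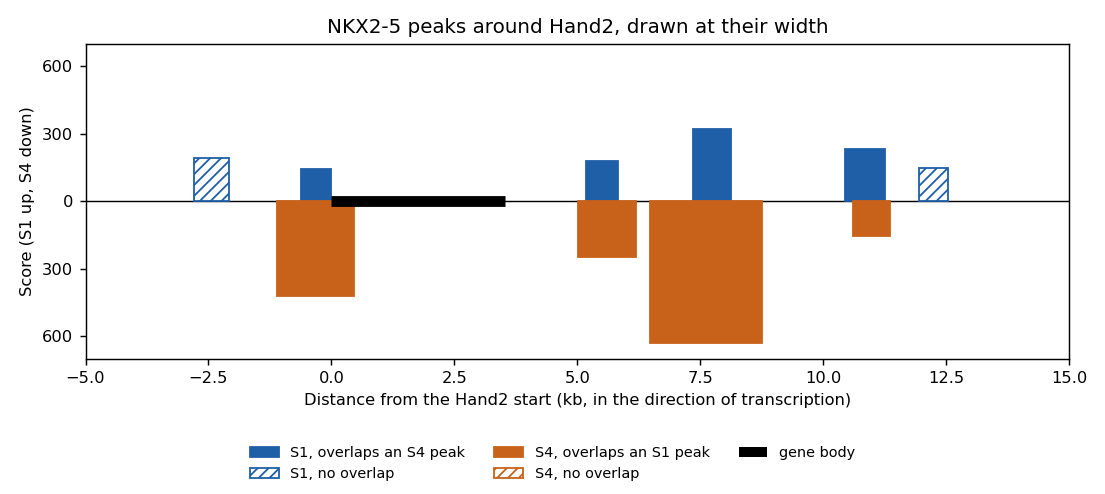
Peaks from 5 kb upstream to 15 kb downstream of the Hand2 start (x axis, kb), drawn at their true width with the score as height (y axis, S1 upwards and S4 downwards). Filled bars overlap a peak of the other library, hatched bars do not, and the black line is the gene body. The 4 shared regions lie at the promoter and on the 3′ side, and the S4 bar of score 631 is the tallest and the widest.

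Hand1 (ENSMUSG00000037335.7, chr11:57642207-57646320, minus strand) had no peak near its start and a shared peak far upstream. The shared peaks, at 42.3 kb in S1 and 42.2 kb in S4, scored 279 in S1 (chr11:57688379-57688898, 520 bp) and 213 in S4 (chr11:57688208-57688864, 657 bp), a log2 ratio of -0.39. A peak of score 250.4 at 14.9 kb upstream (chr11:57660893-57661522, 630 bp) was in the S1 list only, and the nearest S4 peak was 26.7 kb away from it. All 3 were intergenic. For each of them the nearest protein-coding start was that of Gm11003, a predicted gene, at 9.94 kb from the S1 peak without a partner and at 37.4 kb from the shared S1 peak.

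Id1 (ENSMUSG00000042745.9, chr2:152561987-152563146, plus strand) had a promoter peak in each library, but the peaks lay side by side. The S1 peak (chr2:152560966-152561427, 462 bp, score 164) was centred 0.79 kb upstream of the start. The S4 peak (chr2:152561630-152562409, 780 bp, score 193) covered the start, and 202 bp lay between them. Scores were below the median of all peaks in both. A further S4 peak of score 143 (chr2:152617987-152618725, 739 bp), 56.4 kb downstream, was in an intron of Bcl2l1, a gene of the BCL2 family of cell survival regulators.

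Id2 (ENSMUSG00000020644.8, chr12:25778666-25780957, minus strand) had a shared peak just past its 3′ end, and a peak over its start in S4 only. The shared peaks scored 272 in S1 (chr12:25777016-25777817, 802 bp) and 282 in S4 (chr12:25776945-25778174, 1230 bp), a log2 ratio of 0.05. The S4 peak over the start (chr12:25780194-25781552, 1359 bp) scored 409, rank 1021, the highest score of the 15 peaks without a partner at the 6 genes. The nearest S1 peak, the shared one, was 2.38 kb from it. The start of Id2 was therefore covered in 1 library, and the region behind the gene in both, with like scores. A peak of score 156 at 22.6 kb downstream (chr12:25758127-25758679, 553 bp) was in the S1 list only.

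That S1 peak held the 1 match to GTGNTGACA, a longer form of the TGACA site, among the windows of the 6 genes, and its sequence at chr12:25758303-25758503, centred on the peak, is shown for this reason. Capitals mark GTGNTGACA and CACTT.
Id2, 22.6 kb downstream of the start: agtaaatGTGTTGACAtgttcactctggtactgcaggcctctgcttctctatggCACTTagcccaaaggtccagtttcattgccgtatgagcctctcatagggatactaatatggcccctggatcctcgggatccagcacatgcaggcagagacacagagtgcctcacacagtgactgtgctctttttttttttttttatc

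Id3 (ENSMUSG00000007872.3, chr4:135699412-135701670, plus strand) had the highest S1 score of the 6 genes, at 4.49 kb upstream, and was the gene with a shared peak over its start. The upstream peaks scored 566, rank 445, in S1 (chr4:135694469-135695372, 904 bp) and 492, rank 744, in S4 (chr4:135694471-135695531, 1061 bp). Their overlap of 902 bp was the longest of the 8 pairs, and their log2 ratio was -0.20. Over the start, the scores were 147 in S1 (chr4:135699397-135699946, 550 bp) and 160.2 in S4 (chr4:135699213-135699946, 734 bp), both close to the lowest score listed. RefSeq places the start of Id3 325 bp further downstream than GENCODE M1, which is still inside both peaks.

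Id3 had 5 S4 peaks in all, and 1.86% of all protein-coding genes had as many or more. The 3 without an S1 partner had scores between 169 and 189. The wide peak of 1531 bp at 3.72 kb (chr4:135702369-135703899, score 189) lay past the 3′ end of the gene, 2.42 kb from the nearest S1 peak. The other two were nearer to other genes. A peak of score 188 (chr4:135735803-135736614, 812 bp) was inside E2f2, a cell cycle transcription factor gene, and 0.489 kb from an annotated transcript start of it, and a peak of score 169 (chr4:135604095-135604735, 641 bp) was in an intron of Rpl11, a ribosomal protein gene, 2.03 kb from a transcript start of it. The latter, 94997 bp from the start of Id3, was the farthest of the 31 peaks.

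Id4 (ENSMUSG00000021379.1, chr13:48356796-48359405, plus strand) had 2 S1 peaks and no S4 peak. The former, of score 246 and at 12.5 kb downstream (chr13:48368967-48369570, 604 bp), covered the start of A330048O09Rik, a long intergenic noncoding RNA gene on the opposite strand (chr13:48367785-48369253). The latter, of score 186, lay at 55.5 kb (chr13:48411931-48412634, 704 bp). The nearest S4 peak was 115 kb upstream of the Id4 start and just outside the window, with a score of 165 (chr13:48241017-48241853). Neither S1 peak at Id4 thus had a counterpart in the other library.

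Peaks over the gene start were found in S1 for Id3 and in S4 for Hand2, Id1, Id2 and Id3. Among all protein-coding genes 2.35% had an S1 peak over the start and 3.72% had an S4 peak there. Hand1 and Id4 had no peak within 10 kb of the start in either library. Of the peaks at the 6 genes, 3 in S1 and 4 in S4 were centred within 1 kb of the start of their HAND or ID gene, and 8 and 9 within 10 kb. The HAND or ID gene was the nearest protein-coding gene for 13 of the 15 S1 peaks and 11 of the 16 S4 peaks. Distances to the start and nearest genes were not counted over all peaks. These numbers therefore do not show that the peaks lay closer to a start than other peaks.

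**Figure D3:**
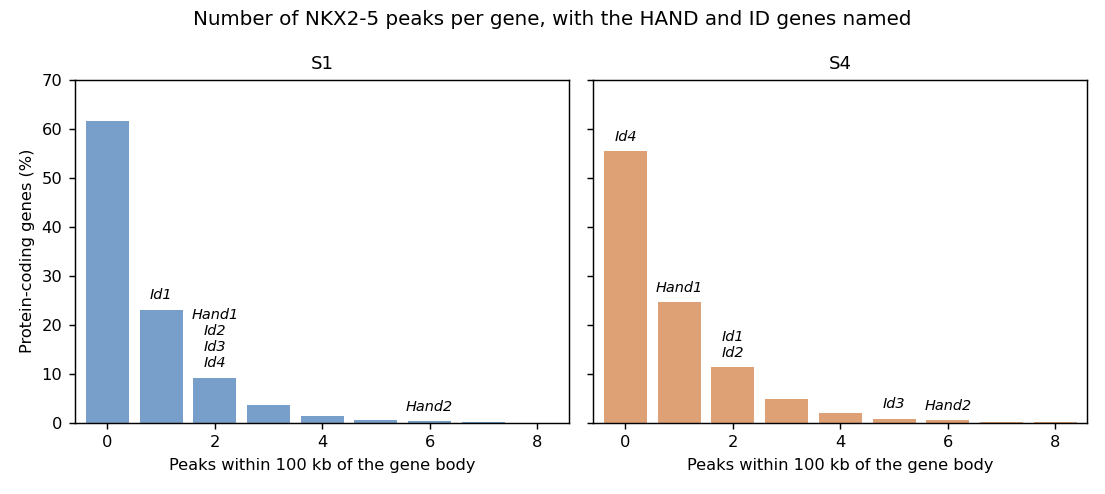
Share of all protein-coding genes (y axis, %) by the number of S1 peaks (left) and S4 peaks (right) within 100 kb of the gene body (x axis, shown up to 8), with the HAND and ID genes named above their bar. In S1, 61.6% of genes have no peak and Hand2 has 6, and in S4, 55.4% have none, with Id4 among them.

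The share of peaks with a partner in the other library differed from that of all peaks by less than its counting error. In S1, 8 of the 15 peaks at these genes overlapped an S4 peak (53.3%, 95% Clopper-Pearson interval 26.6 to 78.7), against 58.9% of all S1 peaks. In S4, 8 of the 16 did (interval 24.7% to 75.3%), against 47.0% of all S4 peaks. The intervals cover counting error only and take the peaks of a locus as independent, which they may not be. Scores of peaks with a partner had a median of 252 in S1 and 265 in S4 against 186 and 188 for those without. The ranges overlapped, since peaks without a partner reached 250.4 in S1 and 409 in S4. The same order held over all peaks, where the medians were 279 and 315 with a partner and 171 and 183 without.

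These peaks were of middling score in their lists. The S1 scores ran from 145 to 566 with a median of 192, below the median of 212 over all S1 peaks, and the S4 scores from 143 to 631 with a median of 203, below 223 over all. Scores of all peaks went up to 3100. In width they were near the rest, with a median of 630.0 bp in S1 (625 bp over all) and 842.5 bp in S4 (783 bp over all).

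Within the 8 shared pairs the S4 score was higher in 5, and over all pairs it was higher in 61.2%. In 7 of the 8 the scores were within 2-fold, as in 84.0% of all pairs, and the promoter of Hand2 was the exception. The log2 ratio (S4 over S1) had a median of 0.09 here and of 0.18 over all pairs. A score rises with the depth of its library, so a difference in score and a difference in depth cannot be told apart. The shared stretches were 486 to 902 bp long, and the midpoints were 6 to 143 bp apart.

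**Figure D4:**
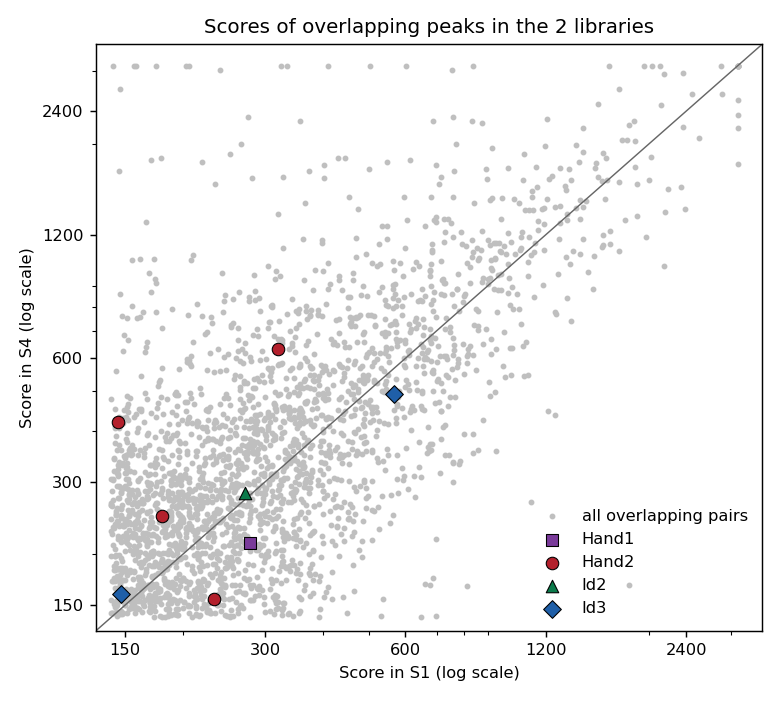
Score in S1 (x axis) against score in S4 (y axis), both on log scales, for the 2610 overlapping pairs of peaks (grey) and the 8 pairs at Hand1, Hand2, Id2 and Id3 (symbols), with the line of equal scores. The Hand2 promoter is the red point at 145 in S1 and 421 in S4, and the other 7 pairs lie within 2-fold of the line.

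Sequence cores were counted in windows of 201 bp, as exact matches on both strands, in the 8 shared stretches and the 15 peaks without a partner, 23 windows in all. AAGTG was in 11 of the 23 windows (47.8%), against 57.8% of the 7313 windows of all peaks of the series. Its longer form TNAAGTG was in 3 (13.0%), against 26.8%. TGACA was in 10 (43.5%), against 55.2%. GTGNTGACA, which contains TGACA, was in 1 (4.35%), against 6.45%, and AAGTGACA, which contains both cores, was in none, against 2.27%. AAGTG or TGACA or both were in 14 of the 23, against 78.3%. No test was made of these differences, and their direction was not the same in every kind of window. In the 7 windows of S1 peaks without a partner, TGACA was in 71.4%, against 50.6% of all such windows, and AAGTG in 57.1%, against 56.6%. Within 25 bp of the midpoint TGACA was in 21.7% of the 23, against 20.4%.

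In the 8 shared stretches AAGTG was present in 4, where 63.6% of all shared stretches had it, and TGACA in 3, where 63.9% did. Those with AAGTG belonged to the Hand2 promoter, Id3, Hand1 and Id2. TNAAGTG was in 3 of the 8 (37.5%), where 31.8% of all shared stretches had it, and these were the sequences of the Hand2 promoter, Id3 and Hand1 shown above. The E-box CANNTG, the site of bHLH dimers, was in 6 of the 8, against 73.1%, and in 14 of all 23, against 69.9%. A core sequence of GATA factors, AGATAA, was in 6 of the 23 (26.1%), against 16.1%. In the shared stretches the direction was the other way, with AGATAA in 1 of the 8 (12.5%), against 18.8%. This was the stretch at 7.73 kb of Hand2. Some matches overlap, as CACTTG at the Hand2 promoter is counted both as AAGTG, on the minus strand, and as CANNTG. GC content of the shared windows ran from 40.3% at the Hand2 promoter to 66.7% at 7.73 kb downstream of Hand2, with a median of 53.5% and of 49.8% over all shared windows. A match is a description of the letters and does not show where NKX2-5 touched the DNA.

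Other bHLH genes of the dimer network were taken from a list of 14, all of which were in the annotation. Of these, 4 had an S1 peak, where 38.4% of all protein-coding genes did. An S4 peak was found at 3, against 44.6%, and a shared peak at 2, against 24.3%. The genes with none in either library were 9. Of all protein-coding genes, 61.6% had no S1 peak and 55.4% had no S4 peak, each share for 1 library alone. The share with no peak in either library was not counted and can be no higher than 55.4%, so the 9 have no matching share here. The genes with a shared peak were Tcf3, an E protein gene, and Lyl1, a bHLH gene of blood and endothelial cells. Tcf3 had a shared promoter peak with scores of 570.2 in S1 (chr10:79896450-79897073) and 861 in S4 (chr10:79896177-79897688). At Lyl1 the highest shared peaks, 36.2 kb upstream in S1 and 36.6 kb in S4, scored 271 (chr8:87188774-87189590) and 619 (chr8:87187772-87189663). Whether another gene starts nearer to the peaks at Tcf3 and Lyl1 was not looked up. The S4 score at Tcf3 was above those of all peaks at the HAND and ID genes. Its S1 score was slightly above their highest S1 score, 565.7 at Id3. Twist1, Twist2, Scx, Tcf15, Tcf21, Msc, Mesp1, Mesp2 and Ferd3l, the relatives of HAND in the TWIST family and other mesodermal bHLH genes, were the 9 without a peak in either list. Twist1 and Ferd3l are neighbours whose windows overlap, as are Mesp1 and Mesp2, so these are not 9 separate stretches of DNA. Tcf4, Tcf12 and Tal1 had peaks in 1 library only.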

How the data were processed

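Fixed hearts were homogenised and sonicated, and NKX2-5 was immunoprecipitated. Reads were sequenced on a Genome Analyzer IIx, aligned to mm9 with BOWTIE and passed to MACS 1.4, per the methods of the study. The labels also name CASAVA 1.4. Whether the Input library served as control is not given in the sources used here. The authors deposited 1 list per ChIP library, called separately, with start, end and a score for each peak. The deposited score was read from its values as 10 times the negative log10 of a p-value. Each library has a background of its own, and scores were not rescaled from S1 to S4. The lists hold no read numbers, so depth is unknown.

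Peaks were assigned by midpoint to GENCODE M1 gene bodies extended by 100 kb, and coordinates are counted from 1. Shared means an overlap of at least 1 bp. A promoter midpoint lay within 1 kb of a transcript start. With 1 condition and 2 libraries no test between groups was possible, and counts were set beside all protein-coding genes or all peaks. Sequences come from the NCBIM37 (mm9) assembly. Starts of 4 of the 6 genes were also placed with RefSeq promoters (GRCm38.p6), matched by sequence. The 6 genes and the lists were chosen with earlier results of these data known. The 6 genes were described in full, and other bHLH genes by counts and by values where a peak was shared. Any other gene was named where its start was nearer to a peak of the 6 genes. Nearest starts were not looked up for peaks at the other bHLH genes. The counting was tested on simulated data. Calculations used Python 3.11.15, numpy 2.4.6, pandas 2.3.3, scipy 1.17.1, pysam 0.24.0 and matplotlib 3.10.9.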

Additional observations from a re-analysis of the deposited data

How the results depend on the processing

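Leaving out a library gave 15 to 16 peaks and 5 to 6 genes with a peak. Keeping peaks that scored 200 or more, the mean was 7.5 peaks per library in place of 15.5, and 5 genes kept a peak. Genes with a shared peak numbered 3 where the HAND or ID gene had to have the nearest coding start, which left out Hand1. They numbered 5 with a gap of up to 500 bp allowed, which added Id1. For the score limit, the nearest start and the gap, shares of all protein-coding genes were not counted. Between windows of 50 and 200 kb, required overlap and merging, the share of peaks with a partner ran from 40.0% to 60.0% in S1 and from 37.5% to 66.7% in S4. In all, 39 of 40 such alternatives gave counts within 1.5 times the main count or shares within its interval. The alternatives draw on the same peak lists, the intervals are wide and the genes are few. Most alternatives could therefore hardly fall outside these limits, and their number says little about stability. Motif counts moved in 18 of 21 alternatives, which changed the window or kept the shared stretches alone. With 25 bp on each side, in place of 100 bp, the regions with a match were 4 (AAGTG), 0 (TNAAGTG), 5 (TGACA), 0 (GTGNTGACA), 3 (CANNTG) and 1 (AGATAA), with AAGTG in 17.4% against 19.9% of all regions, TNAAGTG in none against 7.6% and TGACA in 21.7% against 20.4%. Over the whole stretch or peak they were 20 (AAGTG), 11 (TNAAGTG), 18 (TGACA), 2 (GTGNTGACA), 1 (AAGTGACA), 22 (CANNTG) and 11 (AGATAA), with AAGTG in 87.0% against 88.2%, TNAAGTG in 47.8% against 49.6% and TGACA in 78.3% against 84.1%. In the shared stretches alone they were 4 (AAGTG), 3 (TGACA), 0 (GTGNTGACA), 6 (CANNTG) and 1 (AGATAA). Among all shared stretches AAGTG was in 63.6%, TGACA in 63.9%, GTGNTGACA in 9.43%, CANNTG in 73.1% and AGATAA in 18.8%. With 25 bp on each side, CANNTG was in 13.0% against 26.1% of all regions and AGATAA in 4.35% against 3.92%. For GTGNTGACA the shares were 0.0% and 1.59%. Over the whole stretch or peak, CANNTG was in 95.7% against 95.7% and AGATAA in 47.8% against 36.3%. There GTGNTGACA was in 8.7% against 11.1% and AAGTGACA in 4.35% against 5.09%. No paired analysis was possible because there is 1 condition with a library each for S1 and S4. Unknown depth limits what a missing peak or a difference in score can show.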

Other observations

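The highest score within 500 kb of the 6 genes for a peak with a HAND or ID gene as nearest protein-coding start lay outside the window, 198 kb upstream of Id2. It was shared, with a score of 1059.9 in S1 (chr12:25978564-25979469, rank 129) and 1187 in S4 (chr12:25978149-25979537, rank 140). A further shared pair lay 234 kb upstream of Id2, where S1 scored 232 and S4 scored 331. Downstream of Id2, at 184 kb, a shared pair in an intron of Mboat2 scored 161 and 166. At Hand2 a shared pair 291 kb downstream, in an intron of Galnt7, scored 363 in S1 and 386 in S4, and another at 323 kb scored 142 and 175. Whether any of these regions acts on Id2 or Hand2 was not tested.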
